A study of Mus musculus with 10 samples.

Results

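The genes described here were 10 feedback inhibitors and targets of the FGF/ERK pathway, out of 51467 genes counted in mouse embryonic stem cells (ESCs). The list (Spry1, Spry2, Spry4, Spred1, Spred2, Dusp4, Dusp6, Etv4, Etv5 and Egr1) was selected on the roles of the genes and with the fold changes of the knockouts against WT in these same libraries already known, and each of the 10 was found once in the count table. The libraries came from wild type V6.5 ESCs (WT, 3 libraries), a DGCR8 knockout line (DGCR8 KO, 3 libraries) and 2 DDX6 knockout clones (DDX6 KO clone 1 and clone 2, 2 libraries each). DGCR8 is the RNA-binding partner of Drosha in the Microprocessor, which starts the maturation of canonical miRNAs. DDX6 is an RNA helicase that acts downstream of miRNA-bound Argonaute in translational repression and decapping. The DDX6 lines were made from V6.5 cells with CRISPR-Cas9, and the DGCR8 line had been made earlier, so each knockout is represented by 1 or 2 clonal lines. All groups were grown in serum with LIF and 2i, which is the MEK inhibitor PD0325901 together with the GSK3 inhibitor CHIR99021, so every value below was measured with MEK inhibited, and no library was grown without the inhibitor. Nothing in the sources used here says that the numbered libraries came from separate cultures, so p-values measure only the spread between these libraries.

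In the FGF/ERK pathway, a fibroblast growth factor activates its receptor, RAS then activates the RAF kinases, RAF activates MEK, and MEK phosphorylates ERK. ERK output is limited by proteins whose genes it induces. Sprouty and SPRED proteins act upstream at the level of RAS and RAF, and the DUSP phosphatases remove the phosphates that MEK adds to ERK. ETV4 and ETV5 are ETS transcription factors, and EGR1 is a zinc finger factor of the immediate early class, whose genes are transcribed within minutes of a signal. In ESCs, FGF4 acting through ERK is known for preparing cells to leave naive pluripotency, and 2i is used to block it.

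The libraries held between 2131156 and 4745083 counts assigned to genes. Levels are given as CPM, the count of a gene relative to the library total after TMM scaling, and 3 counts in a library corresponded to between 0.669 and 1.44 CPM. Dgcr8 fell to 20.6% of the WT mean in DGCR8 KO, and Ddx6 fell to 26.4% in clone 1 and 6.02% in clone 2. Of 11683 genes that reached 3 CPM in at least 3 libraries, 1722 passed the test in DGCR8 KO and 1310 in DDX6 KO, where passing means a Benjamini-Hochberg adjusted p below 0.05 by limma-voom and an absolute log2 fold change above 1. All 9 naive pluripotency markers were expressed, with summed levels of 4644 to 5009 CPM in WT, 4640 to 5027 CPM in DGCR8 KO and 5149 to 5379 CPM in DDX6 KO. None of the 9 passed against WT, but by adjusted p alone single markers moved in both directions. In DGCR8 KO, Sox2 and Klf2 were higher, and Nanog, Zfp42, Klf4, Tfcp2l1 and Tbx3 were lower. In DDX6 KO, Nanog, Klf2 and Tbx3 were higher and Tfcp2l1 was lower. Of all tested genes, 36.3% (DGCR8 KO) and 34.5% (DDX6 KO) had such an adjusted p. Of 6 formative and primed markers, Fgf5 was at 0 in every library, and the summed level was 207 to 303 CPM in WT, 163 to 203 CPM in DGCR8 KO and 90.7 to 119 CPM in DDX6 KO. Most of this sum was Dnmt3b, with means of 194, 112 and 75.5 CPM in these groups. In DDX6 KO, Otx2, Lef1 and Dnmt3b passed as lower, Sox3 passed as higher (log2 fold change 1.31) and Pou3f1 did not pass (-0.33). Of 6 fibroblast markers, 1 passed the filter, and the list summed to between 2.38 and 9.16 CPM across all libraries. Primitive endoderm markers (1 of 7 tested) summed to 8.69 to 13.4 CPM in WT, 4.07 to 6.45 in DGCR8 KO and 17.4 to 24.5 in DDX6 KO, and trophoblast markers (1 of 5 tested, with Elf5 at 0 throughout) to 62.4 to 119, 134 to 185 and 40.3 to 90.4 CPM. The tested primitive endoderm marker, Dab2, averaged 6.29, 1.06 and 16.6 CPM in these groups. The tested trophoblast marker, Tfap2c, made up most of its sum, with means of 90.3, 164 and 59.4 CPM. Mesoderm markers (2 of 5 tested) summed to 14.7 to 22.7 CPM in WT, 13.2 to 23.6 in DGCR8 KO and 18.5 to 41.9 in DDX6 KO. Of the 2 tested, Kdr averaged 3.03, 7.10 and 12.8 CPM in these groups, and Eomes 13.9, 10.3 and 12.8 CPM. In DDX6 KO, Kdr passed as higher (log2 fold change 1.88) and Eomes did not pass (-0.12). The part of these markers in the results below was not tested. In bulk RNA, fewer cells of a type and less RNA per cell cannot be told apart.

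The levels did not move as one group in either knockout. The means of Spry4, Egr1, Spred1, Spred2 and Dusp6 were above WT in both knockouts, Etv4 had its highest levels in the DDX6 clones, the means of Spry2 and Etv5 were below WT in both knockouts, and Spry1 and Dusp4 were near the detection limit. Because these genes were chosen with earlier results of the same data known, their differences from WT are a description and not a test. Of the 9 that could be fitted (Dusp4 did not reach 3 CPM in 3 libraries), 3 passed the thresholds as higher in DGCR8 KO and 0 as lower, where 8.93% and 5.81% of all tested genes did so and 14.7% in either direction. In DDX6 KO, 4 passed as higher and 1 as lower, where 7.55% and 3.66% of all tested genes did so and 11.2% in either direction. By adjusted p alone, 7 of the 9 passed in each knockout, where the shares of tested genes were 36.3% (DGCR8 KO) and 34.5% (DDX6 KO). Spry4, which counts as higher in both, met the filter through knockout libraries alone, so its calls are not read as results. The counts given here include it. The libraries of the groups did not overlap for 6 of the 9 genes between DGCR8 KO and WT, against 44.8% of tested genes, and for 7 of the 9 between DDX6 KO and WT, against 39.9%. The median log2 fold change of the 9 was 0.69 in DGCR8 KO and 1.02 in DDX6 KO, where the medians over all tested genes were 0.00 and 0.02.

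**Figure D1:**
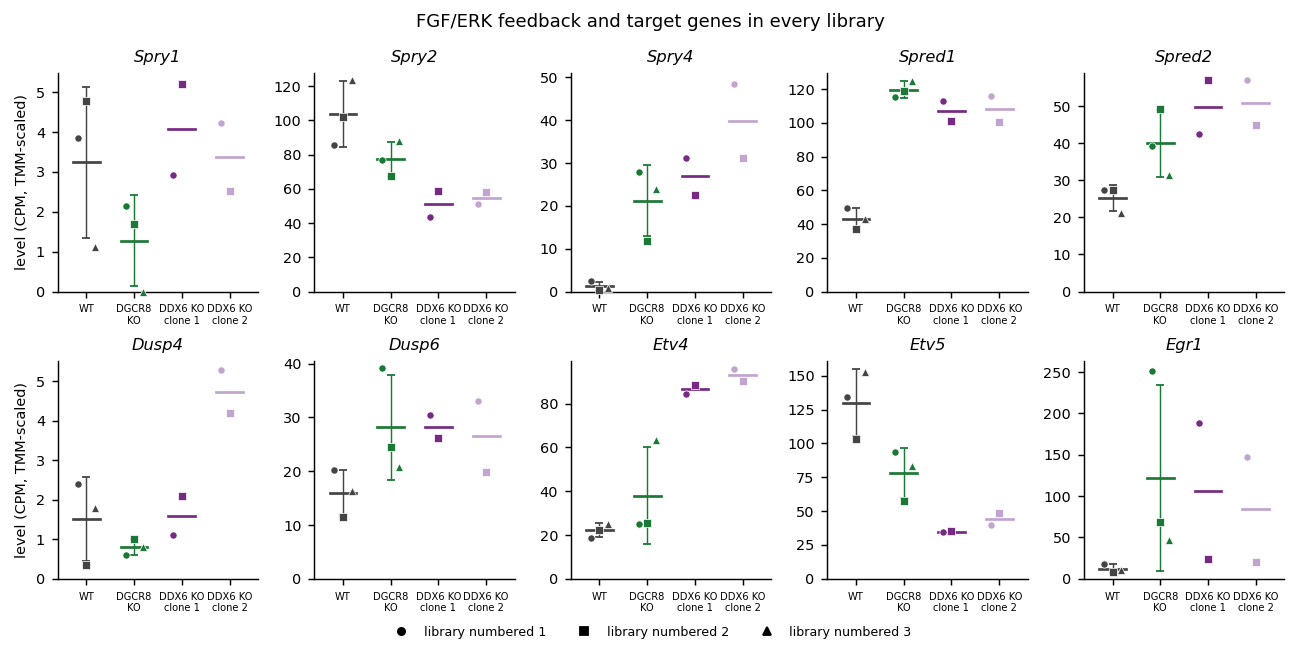
Level of each gene (vertical axis, CPM after TMM scaling, starting at 0) in each of the 10 libraries, by group; points are libraries with their shape giving the library number, bars are group means and error bars are the SD where a group has 3 libraries. Spry4, Spred1 and Egr1 lie above WT in every knockout library, Etv5 lies below it in every knockout library, and the libraries numbered 1 hold the highest Egr1 value of each group.

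Spry4 had the largest difference from WT of the 10 genes in both knockouts. Spry4 (ENSMUSG00000024427, chr18:38586268-38601268, minus strand, GRCm38) encodes a Sprouty protein that is induced by receptor tyrosine kinase signalling and inhibits it. Its level was 2.40, 0.341 and 0.892 CPM in the WT libraries, 27.9, 11.9 and 24.0 CPM in DGCR8 KO, 31.1 and 22.6 CPM in clone 1, and 48.5 and 31.1 CPM in clone 2. All 7 knockout libraries were above all 3 WT libraries, and clone 2 had the highest value. WT averaged 1.21 ± 1.07 CPM (SD, n = 3), against 21.3 ± 8.35 for DGCR8 KO (SD, n = 3) and 33.3 ± 10.9 over the DDX6 KO libraries (SD, n = 4). The WT value rests on 10 reads in all 3 libraries, against 185 in DGCR8 KO and 399 in DDX6 KO. Summed counts gave a ratio to WT of 20.3 in DGCR8 KO and 31.5 in DDX6 KO. The fitted log2 fold changes were 4.29 and 4.97. Every WT library was below 3 CPM, so the filter admitted Spry4 through the knockout libraries alone. Its calls against WT are therefore not read as results, and the levels and reads are given as values.

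Spry2 was below WT instead. Spry2 (ENSMUSG00000022114, chr14:105891949-105896819, minus strand) was measured at 85.5, 102 and 124 CPM in WT, 76.5, 67.5 and 88.0 CPM in DGCR8 KO, 43.6 and 58.8 CPM in clone 1, and 51.4 and 57.9 CPM in clone 2. The 4 DDX6 KO libraries were below every other library, while the highest DGCR8 KO library overlapped the lowest WT library. DDX6 KO retained 51.0% of the WT mean and DGCR8 KO 74.6%, with log2 fold changes of -0.98 (SE 0.15) and -0.45 (SE 0.15). The DDX6 value lies just inside the threshold of 1, and it went past it when WT replicate 1 (-1.10), clone 1 replicate 2 (-1.03), clone 2 replicate 2 (-1.03) or, barely, WT replicate 2 was left out.

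Spry1 (ENSMUSG00000037211, chr3:37639947-37644598, plus strand) was close to the detection limit. Its level was 3.84, 4.77 and 1.11 CPM in WT, 2.14, 1.70 and 0 CPM in DGCR8 KO, 2.93 and 5.22 CPM in clone 1, and 4.22 and 2.52 CPM in clone 2, from at most 15 reads in a library. The WT libraries overlapped both knockouts. The log2 fold changes were -1.27 (SE 0.83) in DGCR8 KO and 0.55 (SE 0.56) in DDX6 KO, and neither passed the thresholds. For WT and DGCR8 KO, whose numbered libraries deviate together, the fit with the library number as a block gave -1.37 for Spry1, which then passed. Without WT replicate 3, Spry1 also passed in DGCR8 KO, at -2.13, and without DGCR8 KO replicate 3, the library with no reads, it was -0.27. At this depth no difference from WT was detectable for Spry1 by the main fit.

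The 3′ UTRs of the Sprouty genes are shown because they share a sequence feature that was not used to choose them. In 1 annotated 3′ UTR per gene, the AU-rich heptamer TATTTAT, which contains the pentamer of AU-rich elements known from unstable mRNAs, occurred 2 times in Spry1, 2 times in Spry2 and 4 times in Spry4. It was also found 3 times in Spred1 and 1 time in Etv5, and was not found in the other 5 genes. Among 10955 tested genes with an annotated 3′ UTR, 29.6% held at least 1 match, and among genes with a 3′ UTR of similar length (from 0.8 times the length up to the inverse of that factor) the share was 25.3% for Spry1, 21.99% for Spry2 and 58.9% for Spry4. Spry4 was above WT and Spry2 below it, and both hold the heptamer. The windows below are given on the sense strand (GRCm38), with the heptamer in capitals, and the first Spry1 window (chr3:37644413-37644433) and the first Spry2 window (chr14:105892096-105892116) have the same first 15 bases.
Spry1, first match: taaagaaTATTTATtatgcga
Spry1, second match: tttatgaTATTTATtgcaaaa
Spry2, first match: taaagaaTATTTATttgaagt
Spry2, second match: aaaagaaTATTTATtttaaga

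**Figure D2:**
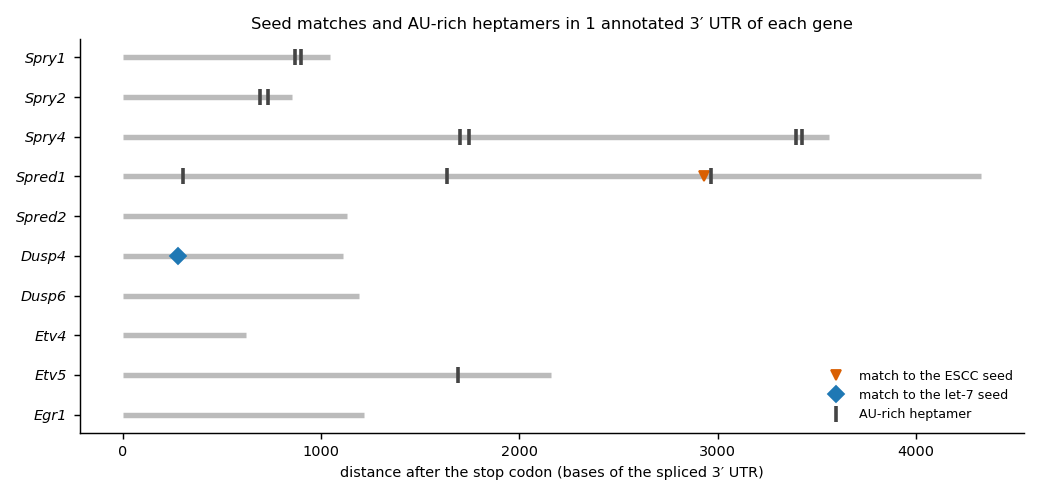
Position of each match along 1 annotated 3′ UTR of each of the 10 genes (horizontal axis, bases after the stop codon); grey bars give the length of the 3′ UTR, dark ticks the AU-rich heptamer, the orange triangle the match to the ESCC seed and the blue diamond the match to the let-7 seed. Spred1 holds the one ESCC match, 2932 bases after the stop codon, Dusp4 the one let-7 match, and the AU-rich ticks fall in Spry1, Spry2, Spry4, Spred1 and Etv5.

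The mean levels of both Spred genes were above WT in both knockouts. SPRED1 and SPRED2 inhibit the pathway by bringing neurofibromin, which switches RAS off, to the plasma membrane. Spred1 (ENSMUSG00000027351, chr2:117121374-117182279, plus strand) was measured at 49.5, 37.1 and 43.0 CPM in WT, 115, 119 and 125 CPM in DGCR8 KO, 113 and 101 CPM in clone 1, and 116 and 100 CPM in clone 2. The knockout libraries lay in a narrow band well above WT, 2.77 times the WT mean in DGCR8 KO and 2.49 times in DDX6 KO. The log2 fold changes were 1.49 (SE 0.13) and 1.33 (SE 0.13), with ranges of 1.39 to 1.58 and 1.24 to 1.46 over all alternatives. Spred1 had the smallest SE of the 9 genes.

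Spred2 (ENSMUSG00000045671, chr11:19924375-20024026, plus strand) had 27.4, 27.3 and 21.2 CPM in WT, 39.2, 49.2 and 31.4 CPM in DGCR8 KO, 42.5 and 57.0 CPM in clone 1, and 57.0 and 44.8 CPM in clone 2. Every knockout library was above every WT library. DGCR8 KO averaged 1.58 times and DDX6 KO 1.99 times the WT mean of 25.3 ± 3.54 CPM (SD, n = 3). The log2 fold changes were 0.69 (SE 0.20) in DGCR8 KO and 1.02 (SE 0.19) in DDX6 KO, the latter just outside the threshold of 1. The DDX6 KO value fell inside the threshold with limma-trend (0.97), with the replicate block (0.84), and without WT replicate 3 (0.86), clone 1 replicate 2 (0.96) or clone 2 replicate 1 (0.96). In DGCR8 KO, Spred2 passed on adjusted p alone, and no longer did so without WT replicate 3 (0.53), DGCR8 KO replicate 2 (0.54) or the libraries numbered 1 (0.74). Nf1, which encodes neurofibromin, is named here after its values were seen. It had 19.2, 13.3 and 15.6 CPM in WT, 32.2 to 40.1 CPM in DGCR8 KO and 36.1 to 45.4 CPM in DDX6 KO, and it passed the test in both knockouts (log2 fold change 1.19, adjusted p = 0.00011, and 1.36, adjusted p = 2.2e-05, limma-voom).

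Spred1 was the only one of the 10 genes whose 3′ UTR matched the seed of the ESCC miRNAs, the family led by the miR-290 and miR-302 clusters that dominates in ESCs and needs DGCR8 for its maturation. The search used the heptamers AGCACTT and GCACTTA, the first pairing with bases 2 to 8 of the miRNA and the second with bases 2 to 7 followed by an A. At least 1 of them was present in 20.03% of tested genes with a 3′ UTR and in 50.0% of those with a 3′ UTR of a length similar to that of Spred1. The Spred1 match lies at chr2:117180866-117180888 on the plus strand and is printed below as DNA with the heptamer in capitals, beneath 3 mature miRNAs (RefSeq, GRCm38.p6) with bases 2 to 8 in capitals. These 3 share 1 seed, while miR-290a-3p and miR-291b-3p of the same cluster differ from it at the last base of the seed. A match is a description of the sequence and does not show that the site is bound.
mmu-miR-291a-3p: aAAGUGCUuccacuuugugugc
mmu-miR-294-3p: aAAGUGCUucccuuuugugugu
mmu-miR-302b-3p: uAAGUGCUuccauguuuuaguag
Spred1 3′ UTR: tgctggaagaattgaAGCACTTt

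Of the phosphatase genes, the mean of Dusp6 was above WT in both knockouts and Dusp4 was at the detection limit. DUSP6 is a cytoplasmic phosphatase selective for ERK and a common readout of ERK activity. Dusp6 (ENSMUSG00000019960, chr10:99263231-99267489, plus strand) had 20.2, 11.6 and 16.3 CPM in WT, 39.2, 24.4 and 20.8 CPM in DGCR8 KO, 30.4 and 26.1 CPM in clone 1, and 33.1 and 19.9 CPM in clone 2. The lowest clone 2 library fell within the WT range. The log2 fold changes were 0.84 (SE 0.27) in DGCR8 KO and 0.78 (SE 0.26) in DDX6 KO, both inside the threshold of 1, and the DGCR8 KO value reached 1.02 and passed without DGCR8 KO replicate 3. The adjusted p of Dusp6 was no longer below 0.05 in DGCR8 KO without WT replicate 2 (0.65), WT replicate 3 (0.90), DGCR8 KO replicate 1 (0.55) or the libraries numbered 1 (0.67). The same held in DDX6 KO without WT replicate 2 (0.59), WT replicate 3 (0.84), clone 1 replicate 1 (0.72), clone 2 replicate 1 (0.68) or the libraries numbered 1 (0.68), and in clone 2 alone (0.71). Among libraries with the same number, the knockout was 1.93, 2.09 and 1.28 times WT in DGCR8 KO, 1.499 and 2.23 times in clone 1, and 1.63 and 1.70 times in clone 2, so each pair had the knockout higher.

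Dusp4 (ENSMUSG00000031530, chr8:34807297-34819894, plus strand), whose product is a nuclear phosphatase, was measured at 2.40, 0.341 and 1.78 CPM in WT, 0.612, 1.02 and 0.815 CPM in DGCR8 KO, 1.10 and 2.09 CPM in clone 1, and 5.28 and 4.20 CPM in clone 2. Clone 2 was the only group with all libraries above the other groups, from 15 reads in each of its libraries. Summed counts in clone 2 were 2.91 times those in clone 1 (95% exact interval 1.35 to 6.97, counting error only). Its 3′ UTR held 1 match to the let-7 seed (TACCTCA), as did 13.1% of 3′ UTRs of similar length. Dusp4 was the 1 gene of the 10 that the filter on low values removed, so it has no fitted value. Tested genes of chromosome 8 had a median log2 fold change of -0.45 in DGCR8 KO and -0.03 in DDX6 KO, and the part of this shift in the Dusp4 level was not tested.

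The 2 ETS factors of the PEA3 group, which FGF signalling is known to induce together, lay on opposite sides of WT in DDX6 KO. Etv4 (ENSMUSG00000017724, chr11:101769742-101785371, minus strand) had 18.7, 22.5 and 25.2 CPM in WT, 25.1, 25.4 and 63.5 CPM in DGCR8 KO, 84.2 and 88.7 CPM in clone 1, and 95.7 and 90.1 CPM in clone 2. The 4 DDX6 KO libraries were tightly grouped at 89.7 ± 4.72 CPM (SD, n = 4), 4.05 times the WT mean of 22.1 ± 3.25 (SD, n = 3). Of the DGCR8 KO libraries, 2 lay at the top of the WT range and replicate 3 stood apart above them. The log2 fold change was 1.98 (SE 0.24) in DDX6 KO and 0.55 (SE 0.27) in DGCR8 KO, and the latter was 0.16 without DGCR8 KO replicate 3. The fit with the library number as a block gave 0.79 for DGCR8 KO, which passed on adjusted p and not on fold change.

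Etv5 (ENSMUSG00000013089, chr16:22381309-22439719, minus strand) had 134, 103 and 153 CPM in WT, 93.4, 57.7 and 83.5 CPM in DGCR8 KO, 34.4 and 35.5 CPM in clone 1, and 39.8 and 48.4 CPM in clone 2. The 3 groups did not overlap and were ordered WT, DGCR8 KO and DDX6 KO from high to low. DGCR8 KO retained 60.1% of the WT mean and DDX6 KO 30.4%, with log2 fold changes of -0.75 (SE 0.18) and -1.71 (SE 0.18). Leaving out any 1 library kept these between -0.92 and -0.54 in DGCR8 KO and between -1.87 and -1.56 in DDX6 KO.

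Egr1 was high in both knockouts and varied widely between libraries of a group, with an SD close to the mean in DGCR8 KO (122 ± 112 CPM, n = 3) and DDX6 KO (95.03 ± 85.95 CPM, n = 4). Egr1 (ENSMUSG00000038418, chr18:34859823-34864984, plus strand) had 18.2, 8.52 and 10.5 CPM in WT, 252, 68.2 and 47.2 CPM in DGCR8 KO, 189 and 23.7 CPM in clone 1, and 147 and 20.4 CPM in clone 2. All knockout libraries were above all WT libraries, and in each group the library numbered 1 was the highest. The log2 fold changes were 3.09 (SE 0.97) in DGCR8 KO and 2.36 (SE 0.96) in DDX6 KO, and the first passed the thresholds while the second did not. In DGCR8 KO, Egr1 no longer passed without WT replicate 3 (3.01) or without DGCR8 KO replicate 1 (2.34). In DDX6 KO it passed without clone 1 replicate 2 (2.80) or clone 2 replicate 2 (2.94). With edgeR and DESeq2 the DDX6 KO value was 2.99 and 2.93, and both passed, as did the limma-trend value of 2.31.

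Comparing libraries of the same number gave a knockout excess in every pair. For Egr1 the knockout level was 13.6, 7.87 and 4.48 times WT for DGCR8 KO libraries numbered 1, 2 and 3, 10.2 and 2.74 times for clone 1, and 7.98 and 2.37 times for clone 2. In the libraries numbered 2 the DDX6 clones were less than 3 times WT. With the libraries numbered 1 left out of every group, a choice made after the data were seen, the log2 fold change was 2.55 in DGCR8 KO and 1.18 in DDX6 KO, and both passed.

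Some other immediate early genes were also highest in the libraries numbered 1, a pattern chosen after the values were seen. Egr1, Dusp6 and Spry4 (the last with 5, 1 and 4 reads in WT) were highest in the library numbered 1 of all 4 groups, which is 3 of 9 genes, against 5.56% of all tested genes. So were 14 of the 69 tested genes of a wider list for this pathway, among them Fos, Fosb, Junb and Ier2, which encode immediate early proteins, and the phosphatase gene Dusp1. Of 16 ERK-responsive genes on that list, 8 had the pattern. Jun and Fosl2 did not, with library 1 at 0.89 times the other library of clone 2 for Jun. For Fosl2 it was at 0.46 times the other library of clone 1. The library numbered 1 was 2.48 to 2.64 times the mean of the others in its group for Fos, 2.76 to 3.77 times for Fosb and 2.49 to 3.58 times for Junb. For Egr1 this ratio was 1.92 times in WT, 4.36 times in DGCR8 KO, 7.98 times in clone 1 and 7.22 times in clone 2. What the number marks is not given in the sources used here, and its part in the Egr1 difference between knockouts and WT was not tested beyond the pairs above.

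**Figure D3:**
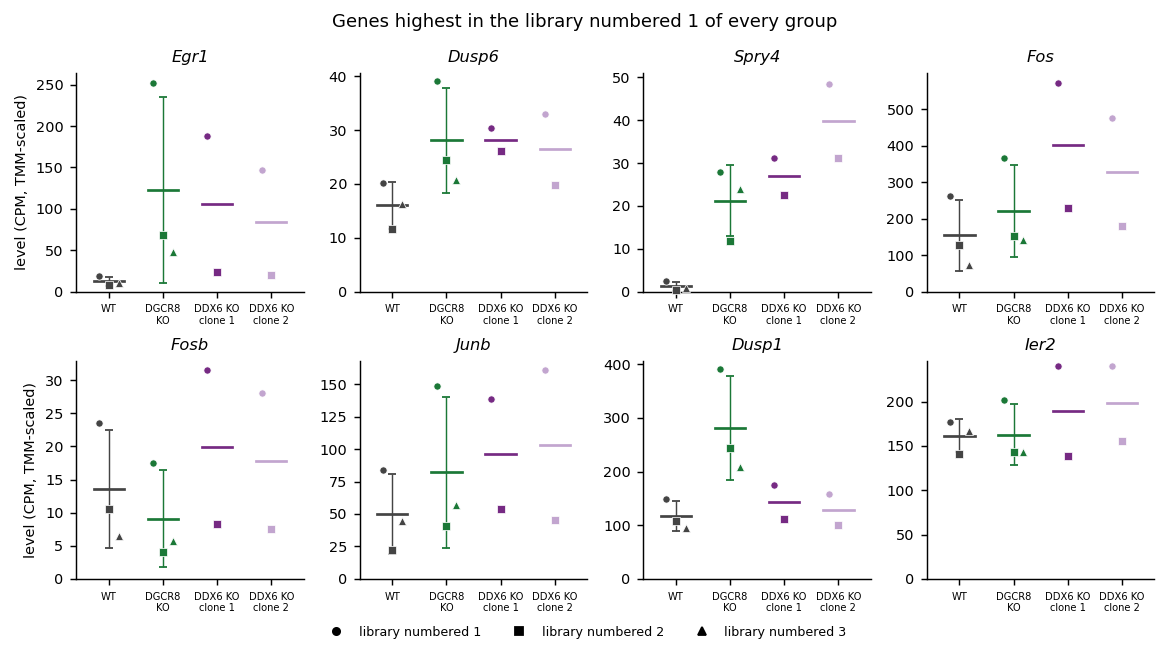
Levels of 3 of the 10 genes (Egr1, Dusp6, Spry4) and of 5 other genes of the pathway list (vertical axis, CPM after TMM scaling) in each library, with point shape giving the library number, bars the group means and error bars the SD where a group has 3 libraries. Circles, the libraries numbered 1, are the highest point of every group in every panel, and the genes drawn were picked from those with this pattern.

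The knockouts were next compared with each other. The difference is between knockout libraries, which also enter the comparisons above, while the WT libraries enter only the shared estimate of the spread and the filter. The fold changes of both knockouts against WT were known when the genes were chosen, so their difference was known too. The differences and p-values below are therefore a description and not a test. DGCR8 KO and DDX6 KO differed by the thresholds in 1 of the 9 genes, lower in DGCR8 KO, where 17.1% of all tested genes differed, 7.77% as higher and 9.32% as lower. By adjusted p alone 3 differed, against 44.0% of tested genes, and 4 had no overlap between the groups, against 45.8% (limma-voom). Etv4 was lower in DGCR8 KO, with a log2 difference of -1.43 (SE 0.21, adjusted p = 3.3e-05), and it was lower in each of 3 DGCR8 KO libraries than in each of 4 DDX6 KO libraries. Etv5 was higher in DGCR8 KO by 0.95 (SE 0.19, adjusted p = 0.00051) and Spry2 by 0.54 (SE 0.15, adjusted p = 0.0086), both without overlap between the groups. Etv5 went past the threshold of 1 without DGCR8 KO replicate 2 (1.17) or clone 2 replicate 2 (1.06). Spry1 was at -2.59 without DGCR8 KO replicate 1 and met the thresholds there. It reached 3 CPM in fewer than 3 libraries outside DDX6 KO, the group where it was higher. The filter thus admitted Spry1 through that group, and its call is not read as a result. With the libraries numbered 1 left out, the adjusted p was 0.013 for Etv4, 0.081 for Etv5 and 0.18 for Spry2, and Egr1 passed. For Spred1 the difference was 0.15 (SE 0.11, adjusted p = 0.27), for Spred2 -0.33 (SE 0.17, adjusted p = 0.13), for Dusp6 0.06 (SE 0.23, adjusted p = 0.84) and for Egr1 0.73 (SE 0.61, adjusted p = 0.35). Spry4, which was 1.57 times higher in DDX6 KO by mean level, is given as values only.

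Between the DDX6 clones, no difference was detected by the fits in the 9 genes that could be fitted. None of the 9 passed between clone 2 and clone 1 by limma-voom, where 0.0428% of all tested genes did. None of the 9 had an unadjusted p below 0.05 by limma-voom, edgeR, DESeq2 or limma-trend, against 2.43% of tested genes by limma-voom. The largest log2 difference was 0.53 (SE 0.32) for Spry4, followed by -0.35 (SE 0.87) for Egr1 and 0.34 (SE 0.27) for Etv5. Summed counts of Spry4 in clone 2 were 1.45 times those in clone 1 (95% exact interval 1.18 to 1.79, counting error only). Dusp4 was not fitted, and its clone 2 counts are given above. Etv4 and Etv5 were higher in both clone 2 libraries than in both clone 1 libraries, and 31.8% of tested genes had no overlap between the clones in one direction or the other. Ddx6 itself was lower in clone 2 than in clone 1, with a log2 difference of -2.18 (SE 0.19, adjusted p = 3.1e-05).

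**Figure D4:**
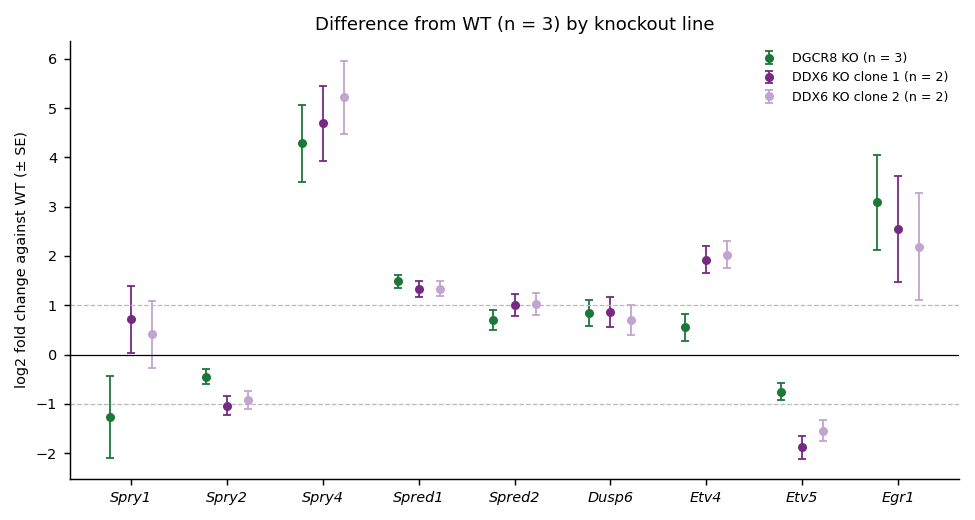
Log2 fold change against WT with its SE (vertical axis) for the 9 fitted genes, in DGCR8 KO (fit over 3 groups) and in each DDX6 KO clone (fit over 4 groups); dashed lines mark the threshold of 1 in each direction. The error bars of clone 1 and clone 2 overlap for every gene, and those of DGCR8 KO lie apart from both clones for Spry1, Spry2, Etv4 and Etv5.

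The closest profiles among all tested genes were looked up for the 6 genes that passed in either knockout, and how close they were differed by gene. The measure was the root mean square difference of log2 CPM, centred on WT, over the 10 libraries. For Spred1 the closest were Nr1d2 (0.14), Gm2830 (0.14) and Fmn1 (0.15), where the median over all tested genes was 1.24. For Spred2 they were Pgrmc1 (0.17), Cdk17 (0.18) and Reep5 (0.18). For Etv5 they were AU020206 (0.24), Fam25c (0.26) and Cpped1 (0.27), and for Etv4 they included Vldlr (0.36) and Runx3 (0.39). The closest profiles to Spry4 were Gm10522 (0.75), Oasl1 (0.90) and Vax2 (1.02), and to Egr1 they were Enox1 (0.92), Nt5e (0.95) and Chst15 (0.96). For Spry4 and Egr1 the medians over all tested genes were 3.91 and 2.49, and even their closest profiles were farther off than those of the other 4 genes. Gm10522 and Oasl1 averaged 0.77 and 0.30 CPM in WT, near the detection limit.

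The rest of the pathway was read from a list of 81 other genes, of which 80 were in the table and 69 were tested. Of the 69, 16 passed as higher and 3 as lower in DGCR8 KO, and 12 as higher and 3 as lower in DDX6 KO, all by limma-voom with thresholds as above. The share was 27.5% in DGCR8 KO and 21.7% in DDX6 KO, beside 14.7% and 11.2% of all tested genes. The median log2 fold change of the 69 was 0.17 in DGCR8 KO and 0.27 in DDX6 KO. Both comparisons use the same WT libraries. Among the genes counted here, Fgf3, Fgf10, Fosl2 and Elk3 in DGCR8 KO and Fgf1, Fgf2, Fgf3, Fgf10, Fgf17 and Fosl2 in DDX6 KO reached 3 CPM in fewer than 3 libraries outside the group where they were higher. The filter admitted them through that group, so their calls are not read as results, and they are given below as values. The counts and shares above include them. With a filter of 10 CPM, where these low genes were no longer tested, 15 genes passed in DGCR8 KO and 9 in DDX6 KO. The count in DDX6 KO was 8 in clone 2 alone and 8 without the libraries numbered 1.

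Of the FGF ligands, 6 of 10 were tested, and the one with a substantial level was Fgf4, the main FGF ligand of ESCs. Fgf4 had 301 ± 17.4 CPM in WT (SD, n = 3), 348 ± 31.7 in DGCR8 KO (SD, n = 3) and 224 ± 19.1 in DDX6 KO (SD, n = 4). It was lower in DDX6 KO than in WT by adjusted p alone (log2 fold change -0.43, SE 0.10, adjusted p = 0.0032) and did not pass in DGCR8 KO (0.21, SE 0.11, adjusted p = 0.14). The other 5 tested ligands averaged below 8 CPM in every group. Fgf2 had 0 to 1.02 CPM in WT, 0 to 0.339 CPM in DGCR8 KO and 5.46 ± 2.44 CPM in DDX6 KO (SD, n = 4), from 5 reads in WT and 67 in DDX6 KO. Fgf17 had 0.480 to 1.70 CPM in WT, 0.306 to 0.407 CPM in DGCR8 KO and 5.22 to 10.2 CPM in DDX6 KO, from 9 reads in WT and 90 in DDX6 KO. Fgf1 had 5 reads in WT and 39 in DDX6 KO, and Fgf3 had 58 reads in WT, 15 in DGCR8 KO and 16 in DDX6 KO. Fgf10 had 2, 19 and 49 reads in the WT libraries, none in DGCR8 KO, and 2, 1, 2 and 16 in the DDX6 KO libraries, so most of its WT reads came from 1 library. Fgf2 and Fgf17 were near 0 in WT and DGCR8 KO and were detected in all 4 DDX6 KO libraries.

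Among receptors and coreceptors, Fgfr1, the main FGF receptor of ESCs together with Fgfr2, was 101 ± 19.1 CPM in WT, 54.4 ± 8.51 in DGCR8 KO and 76.1 ± 10.6 in DDX6 KO. It was lower in DGCR8 KO by adjusted p (-0.86, SE 0.17, adjusted p = 0.00067) and did not pass in DDX6 KO (-0.38, SE 0.15, adjusted p = 0.059). Fgfr2 was below 8 CPM in every library and passed in neither. The glypican gene Gpc3, whose product is a heparan sulfate proteoglycan of the cell surface, had 74.8 ± 25.5 CPM in WT, 206 ± 98.3 in DGCR8 KO and 28.5 ± 5.16 in DDX6 KO, and it passed as higher in the first knockout and lower in the second (1.39 and -1.38, adjusted p = 0.00029 and 0.0015). Gpc4 had 45.0 ± 4.15 CPM in WT, 83.2 ± 9.45 in DGCR8 KO and 124 ± 24.9 in DDX6 KO. It passed as higher in DDX6 KO (1.43, SE 0.16, adjusted p = 3.9e-06, limma-voom). In DGCR8 KO it was higher by adjusted p alone, with log2 fold changes of 0.79 to 0.96 over the alternatives.

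Of 13 RAF, MEK and ERK pathway kinases, 1 passed in each knockout, where 14.7% of all tested genes passed in DGCR8 KO and 11.2% in DDX6 KO. Mapk3, which encodes ERK1, had 90.0 ± 5.43, 110 ± 7.87 and 111 ± 21.02 CPM in WT, DGCR8 KO and DDX6 KO. The MEK genes Map2k1 and Map2k2 had log2 fold changes of -0.16 and -0.14 in DGCR8 KO and 0.27 and -0.24 in DDX6 KO, with adjusted p between 0.28 and 0.60. The levels of these mRNAs do not measure the activity of the kinases. Of 17 adaptors and RAS regulators, 3 passed as higher in DGCR8 KO and 1, Nf1, in DDX6 KO, against 8.93% and 7.55% of all tested genes, and the 3 became 1 without DGCR8 KO replicate 2.

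Of 11 other feedback inhibitors that were tested, 4 passed in DGCR8 KO and 1 in DDX6 KO, against 14.7% and 11.2% of all tested genes. In DGCR8 KO, 3 passed as higher and 1, Dusp9, as lower, and in DDX6 KO the 1 gene, Pea15a, was higher. Dusp9, an ERK phosphatase gene active in ESCs, had 81.6, 78.03 and 77.4 CPM in WT, 18.98, 19.3 and 19.96 CPM in DGCR8 KO and 54.9 to 83.4 CPM in DDX6 KO. It was lower in DGCR8 KO than in WT (-2.01, SE 0.19, adjusted p = 3.3e-07) and than in DDX6 KO (-1.80, SE 0.19, adjusted p = 6.1e-07), with every DGCR8 KO library below every other library. Pea15a, whose product holds ERK in the cytoplasm, was higher in DDX6 KO (1.48, SE 0.30, adjusted p = 0.00092).

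Of 16 other ERK-responsive genes, 7 passed as higher in DGCR8 KO and 5 in DDX6 KO, and none as lower in either, where 8.93% and 7.55% of all tested genes passed as higher. These counts include Fosl2 in both knockouts and Elk3 in DGCR8 KO. The filter admitted both genes through the group where they were higher, so their calls are not read as results. The 5 in DDX6 KO were Etv1, Fos, Fosl2, Jun and Phlda1. They became 3 with DESeq2, with the replicate block or without clone 1 replicate 1 (Etv1 and Fos lost), 3 without WT replicate 3 (Fos and Fosl2 lost) or the libraries numbered 1 (Fosl2 and Phlda1 lost), and 2 in clone 2 alone (Etv1, Fos and Fosl2 lost). Jun, an AP-1 subunit gene, had 14.7 ± 2.22 CPM in WT, 60.6 ± 9.28 in DGCR8 KO and 34.8 ± 4.73 in DDX6 KO, and it passed in both (2.06 and 1.27, adjusted p = 3.9e-07 and 0.00012). Phlda1 also passed in both (1.63 and 1.138, adjusted p = 0.00056 and 0.0088). In DDX6 KO, Phlda1 did not pass without WT replicate 2 (0.88, adjusted p = 0.048) or without the libraries numbered 1 (0.94, adjusted p = 0.11). Fosl2 had 3 reads in WT, 23 in DGCR8 KO and 35 in DDX6 KO. Elk4, which encodes a partner of serum response factor, passed in DGCR8 KO (2.14, SE 0.24, adjusted p = 2.2e-06). Elk3 had 5, 8 and 7 reads in WT and 30, 23 and 11 in DGCR8 KO. Cyclin D1 (Ccnd1) had 311, 294 and 417 CPM in WT, 713 to 1054 CPM in DGCR8 KO and 223 to 271 CPM in DDX6 KO, and the knockouts differed by 1.87 (SE 0.14, adjusted p = 8.1e-09).

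**Figure D5:**
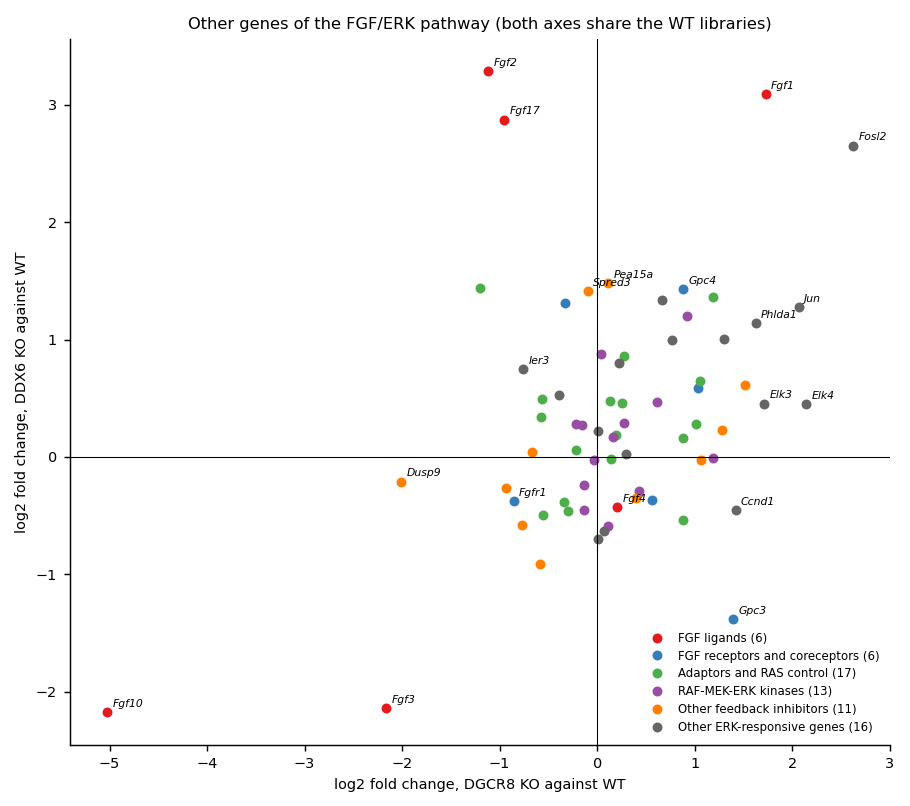
Log2 fold change against WT of the 69 tested genes of the wider pathway list, in DGCR8 KO (horizontal axis) and DDX6 KO (vertical axis), coloured by role; each point is a gene and the 3 WT libraries enter both axes. Fgf10 lies farthest to the left, Fgf2 and Fgf17 lie high on the vertical axis and left of 0 on the horizontal one, and Gpc3 has opposite signs on the axes.

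Between the knockouts, 15 of the 69 genes passed, 8 as higher and 7 as lower in DGCR8 KO, against 17.1% of all tested genes. These counts include Fgf2 and Fgf17, with 1 and 3 reads in DGCR8 KO and 67 and 90 in DDX6 KO, as well as Spred3 and Elk3, all of which met the filter through the group where they were higher and are not read as results. Of the other genes that passed, Gpc3 had the largest difference (2.78, adjusted p = 3.5e-07). The summed formative and primed marker level, most of it Dnmt3b, was lower in DDX6 KO than in the other groups, while Sox3 of that list was higher than in WT, as given above. The part of these markers in the differences between the knockouts was not tested. None of the 69 passed between the clones by limma-voom, with 0 genes at an unadjusted p below 0.05 by limma-voom and 1 by each of edgeR, DESeq2 and limma-trend.

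Promoter windows of 300 bases were on hand for 6 of the 10 genes (RefSeq, GRCm38.p6), and 2 of them matched a motif of a pathway factor. The search covered both strands for the ETS core CCGGAA, the AP-1 site TGANTCA, the CRE TGACGTC and the CArG box. The Spry2 window held 1 ETS core at chr14:105896773-105896794, which 14.9% of 32851 promoter windows also held at least once. The Spred2 window held 1 CRE on the reverse strand at chr11:19924381-19924403, which 3.21% of windows held. AP-1 sites, present in 7.81% of windows, and CArG boxes, present in 1.63%, were not found in these windows, which says only that these letters are not there. The matches are printed with the motif in capitals, Spry2 on the minus strand and Spred2 on the plus strand.
Spry2 promoter: catctatcCCGGAAtccgggag
Spred2 promoter: gctgggaaGACGTCAtcgcttcc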

How the data were processed

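Poly(A)-proximal ends of transcripts were sequenced with the QuantSeq 3′ FWD kit in 10 ESC libraries. Per the labels, the submitters' processing notes name cutadapt 1.14, STAR 2.5.3a, featureCounts 1.5.3 and build mm10. The deposited values are whole-number counts of reads per gene on the sense strand, made by the authors with a Gencode annotation without rRNA genes and with 92 ERCC spike-ins, and are not normalized. Spike-in rows took 1.10% to 2.36% of counts and were set apart. A 3′ read does not grow in number with transcript length, and no molecular identifiers are stated.

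Identifiers of 51274 of 51467 genes were paired with symbols from a later GENCODE release of the same build, which also gave coordinates and 3′ UTRs (the principal isoform, and the longest where several tie). Groups came from the titles. Counts were TMM-scaled and fitted with limma-voom (limma 3.58.1, edgeR 4.0.16, R 4.3.3) over all 10 libraries, and genes had to reach 3 CPM in 3 or more libraries. A gene passed at adjusted p below 0.05 and an absolute log2 fold change above 1. Simulated data were used to check the fit. Same-numbered WT and DGCR8 KO libraries deviated together from their group means (r = 0.14, 0.26 and 0.27). What the numbers mark is not stated. The main fit took no libraries as paired, and a value with the number as a block is given where it changed a call. Alternatives were edgeR, DESeq2 1.42.0, limma-trend, other scalings and filters, each library left out, single clones, a replicate block and the median of the chromosome.

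The members and lists were chosen with earlier results of these data known. Genes named beside the 10 were the targeted genes, fixed core genes of the pathway list, up to 8 of its genes with the largest passing change in each comparison, and the 3 closest profiles per gene. Nf1 was added after its values were seen. Some genes that this rule names are not reported here.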

Additional observations from a re-analysis of the deposited data

Results flagged for a closer look

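Differences between the knockouts were fitted directly (limma-voom, DGCR8 KO minus DDX6 KO on the log2 scale). The genes and lists were chosen with earlier results of these data known, so these differences and their p-values are a description and not a test. Of the 10 genes, Etv4 (-1.43, adjusted p = 3.3e-05), Etv5 (0.95, adjusted p = 0.00051) and Spry2 (0.54, adjusted p = 0.0086) differed, and in each the 3 DGCR8 KO libraries did not overlap the 4 DDX6 KO libraries. Of the genes of the wider pathway list that passed, the 8 with the largest differences included Gpc3 (2.78, adjusted p = 3.5e-07), Ccnd1 (1.87, adjusted p = 8.1e-09), Dusp9 (-1.80, adjusted p = 6.1e-07), Elk4 (1.69, adjusted p = 2.8e-06) and Ier3 (-1.51, adjusted p = 0.0003). The other 3 were Fgf2 (-4.40), Fgf17 (-3.83) and Spred3 (-1.51), which reached 3 CPM in DDX6 KO libraries alone. The filter thus admitted them through the group where they were higher, and their values are not read as results. Spred3, a relative of Spred1 and Spred2, averaged at most 2.81 CPM in any group.

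In the DDX6 KO group, 1 library stood apart from the other 3 in 2 of 34 groups of values examined. It was at 4.48 CPM for Fgf10 (clone 2 replicate 2), with 0.348 to 0.733 CPM in the others, and at 143 CPM for Mapk3 (clone 1 replicate 2), with 101 CPM in each of the others. Chance alone gives such a gap in about 1 of 20 groups.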

How the results depend on the processing

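Of 134 recomputed counts of passing genes, 120 stayed within 1.5 times the value reported, and of 1210 recomputed log2 values 18 changed sign, none of which had passed adjusted p. By adjusted p alone, without the threshold on fold change, 7 of the 9 tested genes passed in DGCR8 KO, 7 in DDX6 KO and 3 between the knockouts, and 31, 31 and 36 of the 69 genes of the wider list, where 36.3%, 34.5% and 44.0% of all tested genes did so. Between the knockouts, the count of 1 became 2 with limma-trend, with clone 1 alone and without the libraries numbered 1, and 1 to 2 with single libraries left out. The gene gained with limma-trend and without DGCR8 KO replicate 1 was Spry1. The filter admitted it through DDX6 KO, where it was higher, so this gain is not read as a result. In DDX6 KO, the 15 genes of the wider list became 9 at 10 CPM, 8 in clone 2 alone and 8 without the libraries numbered 1, settings that also put FGF ligand genes under the filter. Beyond that, the cause was not tested.

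The sign of the Dusp6 difference between the knockouts (0.06) was -0.067 with total counts, -0.044 in clone 1 alone, -0.011 without the libraries numbered 1, and -0.23 to 0.24 with single libraries left out. Egr1 there ranged from -0.026 to 1.252 with single libraries left out. Spry1 in DDX6 KO was -0.38 with the replicate block and ranged from -0.31 to 0.98 with single libraries left out. Between the clones, the ranges with single libraries left out were -0.68 to 0.10 for Spry1, -0.093 to 0.33 for Spry2, -0.086 to 0.12 for Spred1, -0.18 to 0.24 for Spred2, -0.50 to 0.23 for Dusp6 and -1.86 to 1.16 for Egr1.

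Same-numbered WT and DDX6 KO libraries had deviations correlated at 0.16 and 0.15 for number 1 and at 0.072 and 0.011 for number 2. For number 1 these values were no lower than the 0.14 between WT and DGCR8 KO. Whether the numbers pair libraries cannot be told from these values, and the main fit took none as paired. The replicate block gave 5 passing genes of the 10 in DDX6 KO, with Egr1 gained and Spred2 lost, and 4 in DGCR8 KO, and between the knockouts it left the count at 1. Where 1 library was left in a clone, it was assumed to vary like the other groups. Subtracting the median of the chromosome changed no sign among the 9 genes against WT. Scaling by total counts put the median of all tested genes at 0.15 in DDX6 KO and at -0.13 between the knockouts. Spry1, Dusp4 and Fgf10 are limited by counts near the floor.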
